A study of Mus musculus with 8 samples.

Results

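Expanded B cell receptor clones in the deep cervical nodes of C57BL/6 mice were described from single-cell receptor and expression libraries of the same 3 treatments. A barcode, the tag of 1 droplet, was a member of an expanded clone when its productive heavy chain contig with the most UMIs (unique molecular identifiers, 1 per captured RNA molecule) had the same V gene, J gene and CDR3 nucleotides as at least 1 other barcode of the same library. By this rule 252 of 14380 barcodes with a heavy chain (1.752%) were members, in 98 clones. The saline control library came from nodes of mice given DPBS, a buffered saline, into the brain in place of tumour cells. The isotype and anti-CTLA-4 libraries came from wild-type mice carrying GL261, a mouse glioma line, and treated with isotype control IgG or with antibody to CTLA-4, an inhibitory receptor of T cells. All nodes were taken on day 20 and live immune cells were sorted. Each group had 1 library of each kind. The sources used here do not give how many mice were pooled, nor if saline control animals got isotype antibody.

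Each B cell assembles its own heavy chain from V, D and J segments, and the CDR3, where these segments join, is so diverse that cells with the same CDR3 are usually taken as descendants of 1 cell. When an activated B cell divides, its daughters can enter the germinal centre, where V segments are mutated and the constant gene can be exchanged (class switching from IgM and IgD to IgG, IgA or IgE), or can become antibody-secreting plasma cells. The light chain is encoded elsewhere and is not part of the rule, so its agreement within a clone is an independent measurement.

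The clones below are the first 2 of each library by number of barcodes, with ties ordered by summed heavy chain UMIs, and are shown because the results return to them. Each line gives the heavy chain CDR3 5′ to 3′, with the codons of the bounding cysteine and tryptophan in capitals.
saline control clone 1: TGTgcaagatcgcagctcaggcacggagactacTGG
saline control clone 2: TGTgtgactagggagtttgcttacTGG
isotype clone 1: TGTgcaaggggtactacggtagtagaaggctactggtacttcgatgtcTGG
isotype clone 2: TGTgcagtatggatggactacTGG
anti-CTLA-4 clone 1: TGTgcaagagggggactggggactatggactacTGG
anti-CTLA-4 clone 2: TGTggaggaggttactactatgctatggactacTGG
Their V segments lie in the heavy chain locus of chromosome 12 (mm10 coordinates, names matched in RefSeq): IGHV1-77 at chr12:115861867-115862160, IGHV1-55 at chr12:115208137-115208527, IGHV1-72 at chr12:115757984-115758277, IGHV1-82 at chr12:115952538-115952831, IGHV9-3 at chr12:114140692-114141122 and IGHV2-3 at chr12:113611184-113611476. The CDR3 itself is made by rearrangement and has no single position in the genome.

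Isotype clone 1 held 10 barcodes, all plasma cell-like, 5 with IgM and 5 with IgG2c. Its heavy chain counts ran from 1136 to 3928 UMIs per barcode (median 2323.5), all 10 barcodes carried 1 light chain (IGKV3-1), and no barcode differed by any base from the commonest V sequence. Anti-CTLA-4 clone 1 held 14 barcodes, all IgG1, of which 12 were germinal centre B-like, 1 was plasma cell-like and 1 was set aside by its doublet score. Its heavy chain counts were 6 to 100 UMIs (median 21), and the 14 barcodes carried 14 different V sequences. Anti-CTLA-4 clone 2 held 7 plasma cell-like barcodes, 6 with IgG2b and 1 with IgG2c, with 5882 to 10829 heavy chain UMIs each and at most 1 V mismatch. The plasma cell-like clones held few V sequences and the germinal centre B-like clone held many. Isotype clone 2 held 4 plasma cell-like barcodes and 1 germinal centre B-like barcode, with IgG1 in 2 and IgG2b in 3. Saline control clone 2 held 3 germinal centre B-like barcodes, all IgG3, with 4 to 8 V mismatches.

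Saline control clone 1, the largest of its library, was not uniform. Its 6 IgA barcodes had 9573, 7245, 26, 3, 3 and 2 heavy chain UMIs. The 2 highest were plasma cell-like and shared an IGLV1 light chain, and the other 4 had no light chain contig. The 3 lowest lay outside the B lineage clusters and held 6 to 22 UMIs of T cell markers. Whether the heavy chain RNA of these barcodes came from their own cells was not tested.

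Members made up 1.957% of heavy-chain barcodes in the saline control (88 of 4496, 95% interval 1.573 to 2.406), 1.924% in the isotype (87 of 4522, 1.544 to 2.368) and 1.436% under anti-CTLA-4 (77 of 5362, 1.135 to 1.792). These intervals are exact (Clopper-Pearson), cover counting error only and overlap between all 3 libraries. The number of clones and the size of the largest went in opposite directions in that order: 40, 33 and 25 clones, with largest clones of 6, 10 and 14 barcodes. Of the 98 clones 77 were pairs (35, 26 and 16 by library). Clones of at least 3 barcodes held 18, 35 and 45 members. With 1 library per group none of these differences has a replicate check. Just outside the rule, 8, 20 and 29 single barcodes had a CDR3 1 base away from another barcode with the same V and J genes, and 5, 4 and 21 of them also shared its light chain. The rule also counts related CDR3s as separate clones: anti-CTLA-4 clones 3, 13 and 15 belong to 1 family, described below.

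**Figure D1:**
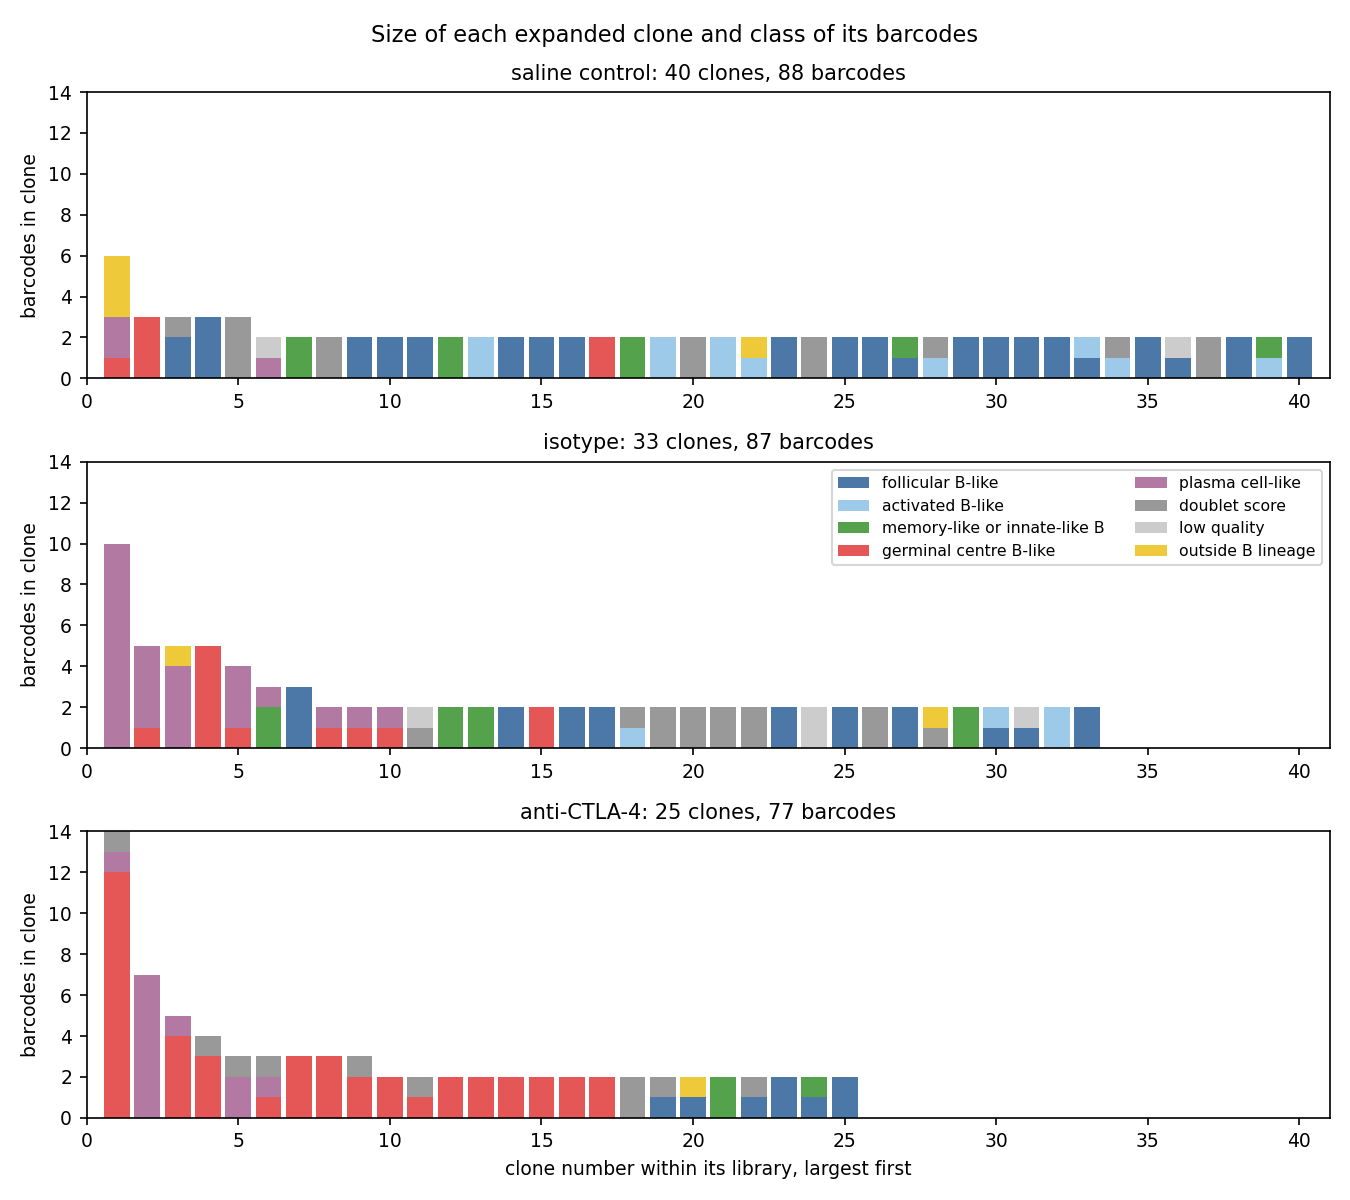
Barcodes per expanded clone (vertical axis) for each clone of the 3 libraries, largest first, with colours for the class of each barcode. The largest clones hold 6, 10 and 14 barcodes, and plasma cell-like and germinal centre B-like barcodes fill most of the large clones of the isotype and anti-CTLA-4 libraries.

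Members of a clone nearly always had related light chains. Of within-clone barcode pairs with 2 light chains, 45 of 48 (93.75%) shared the light V gene, J gene and CDR3 nucleotides in the saline control, 103 of 109 (94.5%) in the isotype library and 114 of 156 (73.08%) under anti-CTLA-4. Between barcodes of different heavy chains the same match was found in 0.3774%, 0.3891% and 0.3929% of pairs. Of the 51 pairs that differed, 44 had the same light V and J genes and CDR3 length and were 1 to 3 bases apart, 40 of them in the anti-CTLA-4 library. Another 7 pairs had other light genes, and 3 of these shared a second light contig. With V and J genes alone, agreement was 98.17% for isotype members and 98.72% for anti-CTLA-4 members. Most anti-CTLA-4 pairs that did not match exactly therefore differed by a few bases and not by their light genes. Pairs of 1 clone share barcodes and are not independent of each other.

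The 3 IgM barcodes of anti-CTLA-4 clone 7 (IGHV7-3, chr12:114153180-114153644, all germinal centre B-like) formed the largest clone in which each barcode had a light chain version of its own. The sequences are shown because the versions differ by few bases. In light chain versions 2 and 3, capitals mark the bases that differ from the first.
anti-CTLA-4 clone 7 heavy chain: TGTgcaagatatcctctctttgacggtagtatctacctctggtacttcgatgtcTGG
light chain version 1: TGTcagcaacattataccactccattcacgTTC
light chain version 2: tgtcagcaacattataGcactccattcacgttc
light chain version 3: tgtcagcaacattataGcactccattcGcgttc
All 3 used IGKV8-24. The G that versions 2 and 3 shared was also present in the IGKV8-24 light chain of saline control clone 12. Version 1 differed from version 2 at this base and version 3 differed from version 2 at another. The capitals therefore give no order of change. The heavy V segments of these barcodes held 4 distinct mismatches, 2 in all 3 barcodes and 2 in 1 barcode each.

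Clones with only unswitched constant genes were 36 of 40 in the saline control (90%, 95% interval 76.34 to 97.21), 23 of 33 in the isotype (69.7%, 51.29 to 84.41) and 11 of 25 under anti-CTLA-4 (44%, 24.4 to 65.07). Clones with only switched genes numbered 4, 7 and 11, the last including anti-CTLA-4 clones 3, 13 and 15 of 1 family. Both kinds occurred together in 0 saline control clones (upper limit 8.81%), 3 isotype clones (9.091%, 95% interval 1.915 to 24.33) and 3 anti-CTLA-4 clones (12%, 2.547 to 31.22). By barcode, 13 of 88 saline control members (14.77%), 29 of 87 isotype members (33.33%) and 48 of 77 anti-CTLA-4 members (62.34%) were switched, against 0.4083%, 0.8343% and 1.287% of other barcodes. Read the other way, 13 of 31 switched barcodes (41.94%), 29 of 66 (43.94%) and 48 of 116 (41.38%) lay in an expanded clone, with shares within 3 points of each other. Of unswitched barcodes 1.682%, 1.306% and 0.554% did. These counts by barcode include members that were later set aside by quality, doublet score or cluster.

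The constant genes used by switched members differed by library. IgA made up 8 of 13 switched saline control members, in the 2 clones with plasma cell-like barcodes. Of these 8, 3 in saline control clone 1 lay outside the B lineage clusters, with 2 or 3 heavy chain UMIs each. Another, in saline control clone 6, was of low quality, with 556 expression UMIs. The isotype members held 10 IgG1, 8 IgG2b and 11 IgG2c barcodes and no IgA. In the anti-CTLA-4 library IgG1 led with 34 of 48, of which anti-CTLA-4 clone 1 gave 14. In plasma cell-like members the constant gene of the contig was also the most abundant one in the expression library in 3 of 3, 25 of 25 and 12 of 12 barcodes. In germinal centre B-like members this held for 4 of 6, 11 of 12 and 35 of 43.

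The 6 clones that joined unswitched and switched barcodes are printed with their CDR3, except isotype clone 1, shown above.
isotype clone 4: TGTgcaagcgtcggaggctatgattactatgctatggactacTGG
isotype clone 5: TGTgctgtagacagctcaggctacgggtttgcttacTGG
anti-CTLA-4 clone 6: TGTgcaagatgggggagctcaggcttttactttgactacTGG
anti-CTLA-4 clone 10: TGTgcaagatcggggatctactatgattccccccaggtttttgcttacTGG
anti-CTLA-4 clone 14: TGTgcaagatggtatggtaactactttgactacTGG
Isotype clone 4 (IGHV1-42, chr12:114937154-114937544) held 4 IgM barcodes and 1 IgG1 barcode, all 5 germinal centre B-like and each with its own V sequence. Isotype clone 5 (IGHV8-8, chr12:115294066-115294362) held 1 IgM, 2 IgG2b and 1 IgG2c barcode with 1 lambda light chain, 3 of them plasma cell-like and 1 germinal centre B-like. Anti-CTLA-4 clone 6 (IGHV1-66, chr12:115593110-115593403) held 1 IgM, 1 IgG1 and 1 IgG2c barcode, with 1 V sequence and 1 light chain. Anti-CTLA-4 clones 10 (IGHV1-19) and 14 (IGHV1-50) were pairs of germinal centre B-like barcodes, with IgM beside IgG3 in the first and beside IgG1 in the second.

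V segment mutation was counted as bases differing from the commonest unswitched V sequence of the same gene in these files, and a barcode with at least 2 such bases was called mutated. By that measure 6 of 88 saline control members (6.818%, 95% interval 2.543 to 14.25), 5 of 87 isotype members (5.747%, 1.892 to 12.9) and 39 of 76 anti-CTLA-4 members (51.32%, 39.57 to 62.96) were mutated. The other barcodes of these libraries gave 0.4767%, 0.6089% and 1.42%. These intervals cover counting error only: members of a clone share inherited mutations and are not independent, and each treatment had 1 library, so they are no test between treatments. Without the largest clone the anti-CTLA-4 share was 51.61%. Light chain V segments followed: 4 of 84, 1 of 83 and 29 of 74 members were mutated, against 0.4813%, 0.3891% and 0.8609% of the others.

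Mutation was found mainly in 1 class. Of germinal centre B-like members 6 of 6, 5 of 12 and 34 of 42 were mutated, whereas among plasma cell-like members 0 of 3, 0 of 25 and 1 of 12 were, and among follicular B-like members 0 of 40, 0 of 19 and 0 of 8. Switched isotype members were mutated in 3 of 29 cases (10.34%, 2.186 to 27.35), against 18 of 37 switched barcodes outside clones (48.65%, 31.92 to 65.6). For anti-CTLA-4 the corresponding shares were 62.5% and 56.72%. Among anti-CTLA-4 members 9 of 28 unswitched barcodes were mutated as well.

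**Figure D2:**
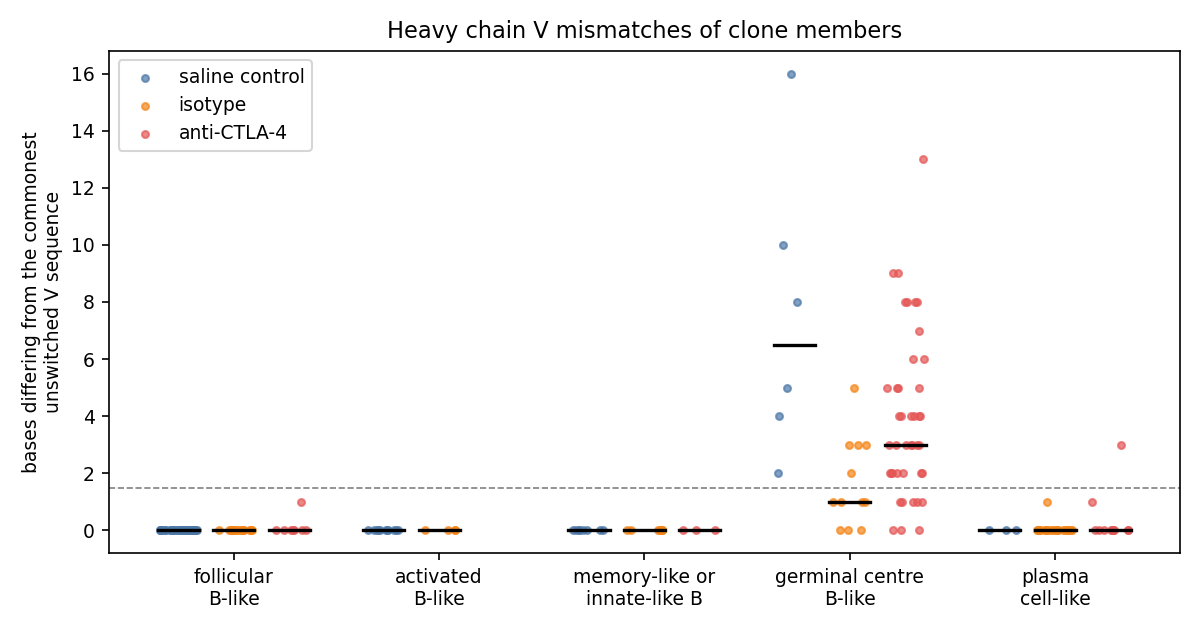
Bases differing from the commonest unswitched V sequence (vertical axis) in each clone member, by class and library, with black bars for medians and a dashed line below the threshold of 2. Germinal centre B-like members reach 16, 5 and 13 mismatches in the 3 libraries, and all but 1 of the 40 plasma cell-like members have 0 or 1.

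The substitutions themselves were mostly private. In 26 clones with any mismatch, 198 distinct substitutions were found, 143 of them in 17 anti-CTLA-4 clones. Of the 198, 151 occurred in 1 barcode of their clone and 36 in every barcode compared. The counts overlap in anti-CTLA-4 clone 14, where 1 barcode was compared and its 2 substitutions enter both. Substitutions were counted clone by clone. Changes shared by anti-CTLA-4 clones 3, 13 and 15 of 1 family, such as G to C at base 92 of IGHV1-9, thus count in each, and private refers to the clone alone. CDR1 and CDR2 held 44 (22.22%), although they span 13.75% of the positions compared. Replacements of the amino acid made up 36 of 44 in these loops (81.82%) and 104 of 154 in the framework (67.53%). The C of AGC or the G of GCT, searched on both strands as a motif that somatic hypermutation is known to favour, was the mutated base in 39 cases (19.7%) and held 5.69% of positions. By base, 62 changes started from A, 43 from C, 80 from G and 13 from T. All 251 members compared were in frame, which the input fixed: only productive contigs with a V segment of the common length were compared. These shares describe the substitutions of related barcodes and were not tested.

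A family of IgG1 heavy chains occurred in both glioma libraries. It was singled out after its values were seen and is a description. Heavy chains of IGHV9-3 and IGHJ4 with a CDR3 of 36 bases and an IGKV10-96 and IGKJ1 light chain occurred in 0 saline control, 4 isotype and 17 anti-CTLA-4 barcodes, all IgG1, and in no unswitched barcode. No barcode sequence was shared between the libraries in this group. IGHV9-3 itself was used by 188, 181 and 188 barcodes, about equally in the 3 libraries. The versions are printed with capitals at the bases that differ from the commonest one.
anti-CTLA-4, 14 barcodes: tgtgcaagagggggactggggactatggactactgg
anti-CTLA-4, 1 barcode: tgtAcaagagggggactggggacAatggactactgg
anti-CTLA-4, 1 barcode: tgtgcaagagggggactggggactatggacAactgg
anti-CTLA-4, 1 barcode: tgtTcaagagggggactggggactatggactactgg
isotype, 2 barcodes: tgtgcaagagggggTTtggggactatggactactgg
isotype, 1 barcode: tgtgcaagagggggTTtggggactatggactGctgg
isotype, 1 barcode: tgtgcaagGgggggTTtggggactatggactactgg
All isotype versions carried the same pair of adjacent bases that no anti-CTLA-4 version had. The isotype pair (isotype clone 8) and anti-CTLA-4 clone 1 encode the same CDR3 amino acids by different nucleotides and shared the light chain CDR3 to the base. In the group 3 isotype and 14 anti-CTLA-4 barcodes were germinal centre B-like and 1 of each library was plasma cell-like. Among all 98 clones, 3 had their CDR3 protein with the same V and J genes in another library, against 0.1699% of single heavy chains. The remaining one, isotype clone 14, was paired with another light chain there.

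The clone 1 light chain versions show the same private pattern, with capitals at the bases that differ in the lower lines.
IGKV10-96, 12 barcodes: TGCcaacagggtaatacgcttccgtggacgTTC
IGKV10-96, 1 barcode: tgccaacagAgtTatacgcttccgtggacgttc
IGKV10-96, 1 barcode: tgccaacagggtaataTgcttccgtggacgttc
The heavy chains of anti-CTLA-4 clone 1 held 27 distinct V substitutions, 23 of them in 1 barcode each and 0 in all, with 0 to 5 per barcode (median 1.5). Of the 27, 23 replaced an amino acid and 1 lay in CDR1 or CDR2. Anti-CTLA-4 clone 3 (IGHV1-9, chr12:114583569-114583862, IGKV12-41) was the more mutated, with 3 to 9 mismatches in its 5 IgG1 barcodes. With CDR3s a few bases away it formed a family of 10 IgG1 barcodes, of which 9 were germinal centre B-like and 1 was plasma cell-like, with 3530 heavy chain UMIs in the latter. The family joined anti-CTLA-4 clones 3, 13 and 15, which the rule counts as 3 clones.

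The expression state of members was read from the same barcodes in the expression libraries. After removal of 6 members of low quality and 37 with high doublet scores, 209 were kept, and 202 of them lay in B lineage clusters. Classes were named by markers: Fcer2a and Ccr7 for follicular B-like, Egr1 and Myc for activated, Fcrl5 and Cd9 for memory-like or innate-like, Mybl1 and S1pr2 for germinal centre and Xbp1 and Jchain for plasma cell-like clusters. Immunoglobulin genes were left out of the clustering, so class and clone were assigned from different RNAs. Heat shock genes such as Hspa1a and Hspb1 led some follicular B-like clusters.

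Germinal centre B-like barcodes were 8.824% of B lineage members in the saline control (6 of 68, 95% interval 3.307 to 18.22), 17.65% in the isotype (12 of 68, 9.465 to 28.8) and 65.15% under anti-CTLA-4 (43 of 66). Among other barcodes they were 0.3344%, 0.9774% and 1.968%. Plasma cell-like barcodes were 4.412%, 36.76% and 18.18% of members, against 0.07718%, 0.3344% and 0.2211% of the others. Counted by barcode, plasma cell-like was thus the most frequent class in isotype members, and germinal centre B-like in anti-CTLA-4 members. Counted by clone, the isotype order was another. Its 25 plasma cell-like members came from 8 clones, with 10 from isotype clone 1, and its 19 follicular B-like members from 10 clones. The 43 germinal centre B-like anti-CTLA-4 members came from 15 clones. Follicular B-like barcodes were 58.82%, 27.94% and 12.12% of members, against 75.23%, 72.04% and 77.69% of the others. When each isotype clone was counted once, by its barcode with most heavy chain UMIs, the joint share of both these classes, germinal centre B-like or plasma cell-like, went from 54.41% to 41.67%.

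Seen from the classes, 3 of 6, 25 of 38 and 12 of 22 plasma cell-like barcodes belonged to an expanded clone, as did 6 of 19, 12 of 50 and 43 of 132 germinal centre B-like barcodes. Of follicular B-like barcodes 1.35%, 0.6738% and 0.2271% did. Among 73 clones with at least 2 B lineage members, 58 held 1 class, and 9 (1, 5 and 3 by library) joined germinal centre B-like with plasma cell-like barcodes. No clone joined follicular B-like barcodes with either of these classes. Clones of germinal centre B-like barcodes alone numbered 2, 2 and 11, and clones of follicular B-like barcodes alone 18, 8 and 2.

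**Figure D3:**
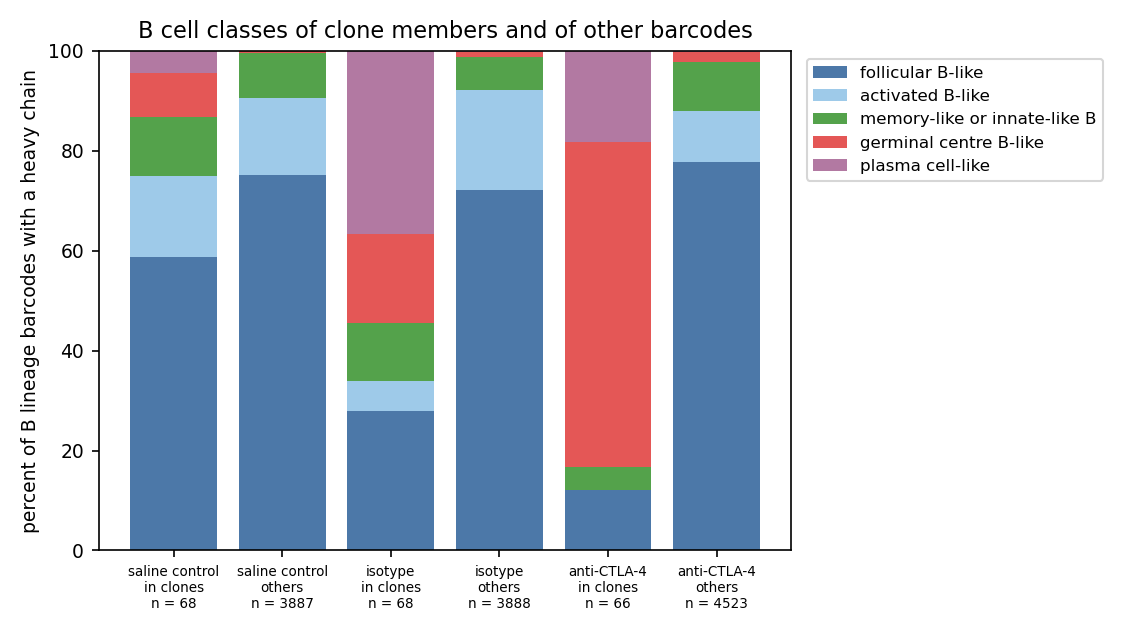
Percent of B lineage barcodes with a heavy chain in each class, for clone members and all other barcodes of each library. Germinal centre B-like barcodes go from 8.824% to 65.15% of members between the saline control and anti-CTLA-4 libraries but stay under 2% of the others.

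Follicular B-like members were shallower than the other barcodes of their class. They had medians of 1861.5, 2151 and 1994.5 expression UMIs, against 3901, 3821 and 3447 in the other follicular B-like barcodes, and medians of 6.5, 7 and 5.5 heavy chain UMIs against 11, 10 and 10. In clones of 2 follicular B-like barcodes, both summed to medians of 4159.5, 4247 and 3399 UMIs (16, 7 and 2 clones), close to 1 other barcode. Counting every follicular pair of the same clone, also in larger clones where 1 barcode enters several pairs, gave 3641, 4361.5 and 3399 UMIs (20, 10 and 2 pairs). In the saline control, such pairs also shared a median of 1.5 genes detected in under 5% of cells, against 0 for pairs of different clones, and the isotype gave the same values. In the anti-CTLA-4 library, with 2 pairs, these medians were 2 and 1. Lower depth was not limited to this class. Activated B-like members had medians of 2269 and 2815 UMIs in the saline control and isotype libraries, against 3839.5 and 3785. Memory-like or innate-like members had 2748 against 5746 in the saline control and 2002 against 5434 under anti-CTLA-4. In the isotype library they were deeper, with 9111 against 6312. Germinal centre B-like members were also shallower than the others of their class, with medians of 10182.5, 17498 and 14648 UMIs against 19761, 22581.5 and 15490, most so for the 6 saline control members. The likeness of same-clone pairs in rarely detected genes, as median cosine similarity, was 0.209, 0.2146 and 0.1822 in this class, against 0.1909, 0.232 and 0.2306 for different clones. Barcode sequences within a clone were 7 to 16 bases apart. All follicular clone members were unmutated. By receptor sequence, 1 cell tagged with 2 barcodes and 2 unmutated sister cells cannot be told apart.

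**Figure D4:**
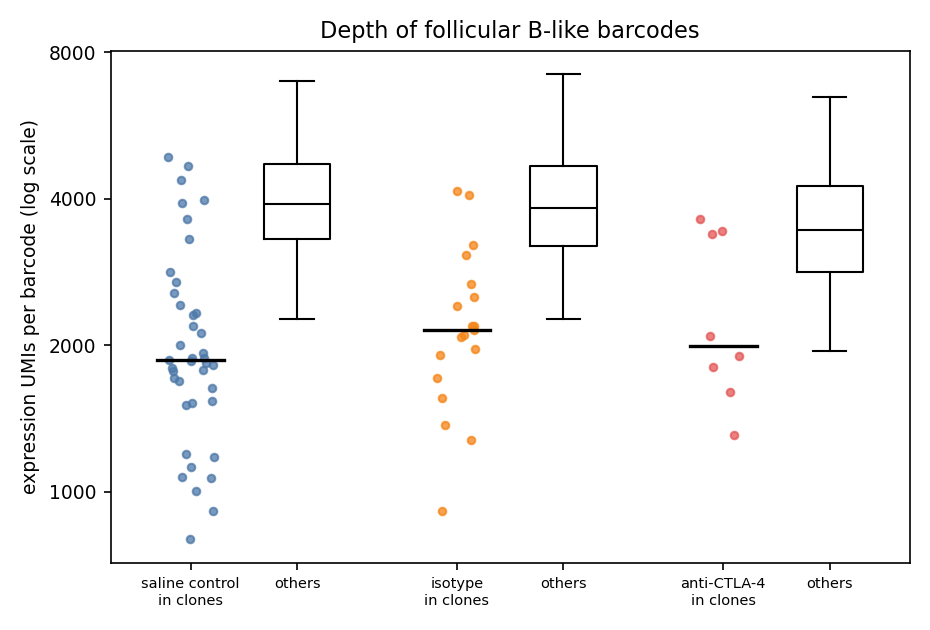
Expression UMIs per barcode (log scale) of follicular B-like clone members as points with black median bars, beside box plots of all other follicular B-like barcodes (median, quartiles, whiskers at the 5th and 95th percentiles). Median depth of members is 1861.5, 2151 and 1994.5 UMIs against 3901, 3821 and 3447.

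Members were next compared with all other heavy-chain barcodes by summing UMIs on each side within a library, giving 3 pairs of sums. The libraries had different treatments and may differ technically. The p-values combine each gene's spread between these 3 libraries (2 residual degrees of freedom) with spread pooled over genes (21.6 prior degrees of freedom). They therefore rest mostly on the pooled spread. Of 11675 genes tested, 2760 differed (23.6%), with 1478 higher (12.7%) and 1282 lower (11%) in members. Without the isotype library 1617 genes passed and without the anti-CTLA-4 library 1284. Values below are CPM (UMIs scaled to a common library size by TMM), and fold changes are on the log2 scale with standard error (SE) and adjusted p from edgeR's quasi-likelihood test. The median over all genes was -0.07.

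Of 14 tested germinal centre programme genes 11 were higher and 2 lower (list median 3.07). Mybl1, a transcription factor of proliferating germinal centre cells, was at 59.6, 40.2 and 99.4 CPM in members (saline control, then isotype, then anti-CTLA-4, as in all lists of 3), against 2.24, 4.38 and 11.6 in the others (log2 3.48, SE 0.297, adjusted p = 6.26e-09). S1pr2, a receptor that keeps cells in the germinal centre, was at 69.5, 34.8 and 153 CPM against 2.0, 4.67 and 12.1 (log2 3.73, SE 0.306, adjusted p = 3.42e-09). The members lay above the others in each library for both genes. Lmo2 (log2 -1.77, adjusted p = 4.67e-06) and Cd38, an ectoenzyme of resting B cells that germinal centre cells of mice lose (log2 -1.92, adjusted p = 1.52e-05), were lower. Bcl6, the repressor that directs the programme, did not pass (log2 -0.34, adjusted p = 0.336).

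Antibody secretion and ER folding genes were higher in 19 of 20 cases, and Irf4 did not pass (log2 -0.41, adjusted p = 0.25). Jchain, which links IgM and IgA into polymers, was at 20100, 15500 and 4800 CPM against 211, 854 and 679 (log2 4.48, SE 0.415, adjusted p = 2.18e-08). Xbp1, the factor that expands the secretory apparatus, was at 709, 1490 and 435 CPM against 64.5, 90.7 and 70.3 (log2 3.38, SE 0.246, adjusted p = 8.14e-10). Here the anti-CTLA-4 members were the lowest of the 3. All 20 cell cycle genes were higher. Mki67 was at 136, 464 and 595 CPM against 15.9, 36.1 and 57.3 (log2 3.41, SE 0.226, adjusted p = 2.11e-10).

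Genes of naive follicular B cells were lower in 10 of 11 cases. Ccr7, a receptor for chemokines of the T cell zone, was at 619, 171 and 59.1 CPM against 1080, 1070 and 874 (log2 -2.42, SE 0.348, adjusted p = 1.43e-05). Fcer2a, the low-affinity IgE receptor of resting B cells, was at 268, 82.6 and 75 CPM against 511, 459 and 480 (log2 -2.04, SE 0.27, adjusted p = 4.84e-06). For both the saline control members were nearest to the other barcodes. MHC class II presentation genes were lower in 10 of 10 cases, with H2-Aa at 4300, 2030 and 2690 CPM against 7420, 7720 and 7390 (log2 -1.39, SE 0.18, adjusted p = 3.41e-06). Receptor complex and coreceptor genes were lower in 10 of 13, with Cd72 at log2 -1.85 (adjusted p = 2.35e-06).

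**Figure D5:**
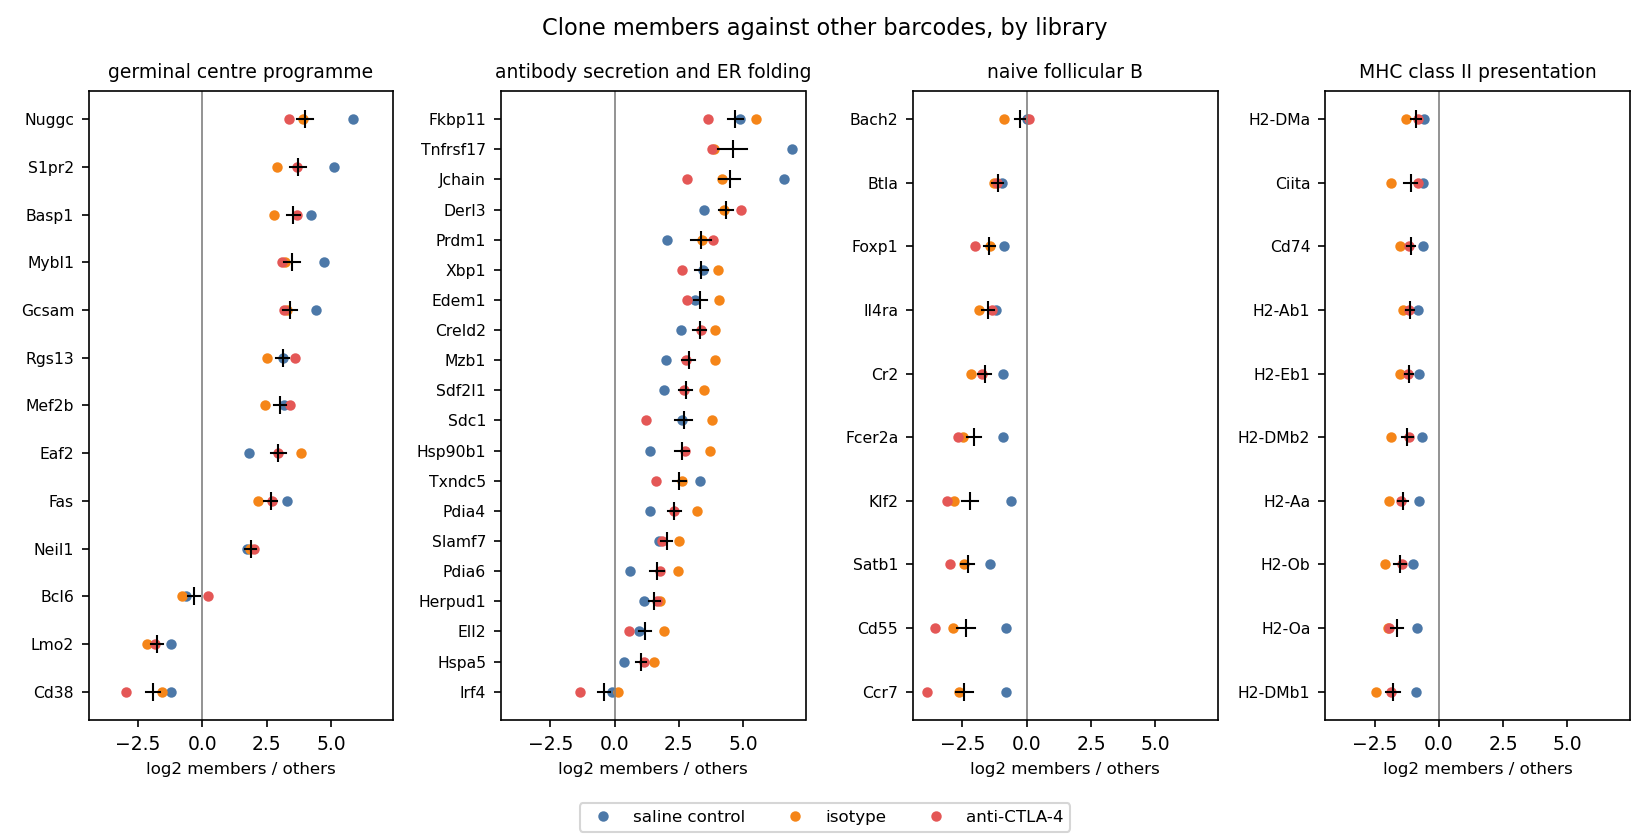
Log2 ratio of CPM in clone members to other barcodes for tested genes of 4 lists (1 gene each of the germinal centre and follicular lists is not drawn), with coloured points for the 3 libraries and black marks for the fitted log2 fold change with its SE. Saline control points lie nearest to 0 for the 10 called MHC class II genes, and 11 of 14 germinal centre and 19 of 20 secretion genes are higher in members.

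The other lists divided. Activation genes were lower in 8 of 14 and higher in 0, with Nr4a1, an immediate early gene of receptor signalling, at 404, 124 and 71.3 CPM against 983, 892 and 724 (log2 -2.49, adjusted p = 4.75e-07). Switching and mutation machinery was higher in 4 of 12 (2 with 1 barcode per clone), and 8 did not pass, among them Ung, a repair enzyme that removes uracil from DNA (log2 0.44, adjusted p = 0.355). Memory and innate-like genes were higher in 5 of 14 and lower in 4, but with 1 barcode per clone 1 was higher and 1 lower, without the isotype library 2 and 1, and without the anti-CTLA-4 library 5 and 0. The higher ones included Cd80 (log2 2.13, adjusted p = 0.0101), Nt5e (log2 2.4, adjusted p = 0.000179) and Ctla4 itself, at 46.4, 114 and 10.3 CPM against 5.87, 10.5 and 6.98 (log2 2.54, adjusted p = 2.82e-05). Type I interferon genes were lower in 6 of 15 and higher in 1, Bst2 (log2 1.5, adjusted p = 7.25e-05). The lower ones numbered 0 without the anti-CTLA-4 library, 1 with 1 barcode per clone and 2 with DESeq2, and Bst2 was at log2 -0.39 (adjusted p = 0.963) with germinal centre B-like and with plasma cell-like barcodes left out.

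By size of change, the 12 highest genes ran from log2 4.85 to 6.16, with Zfp9, Fads3, Filip1, Gpm6a, Gpnmb, Eef1akmt3, Evc and Pgam2 resting on 12 to 44 UMIs in members. The abundant ones were Slpi, a secreted protease inhibitor, at 169, 19000 and 10900 CPM against 23.6, 679 and 88.2 (log2 4.96, adjusted p = 1.68e-08), and Pon3, at 72.8, 184 and 88.2 against 1.69, 4.73 and 4.28 (log2 4.96, adjusted p = 1.5e-11). Hid1 (log2 5.25) and Kdelr3, a receptor that returns escaped proteins to the ER (log2 4.85), act in the secretory route. The 12 lowest had 0 UMIs in all 209 kept members, as did 97 of the genes tested. Against a floor of 3 counts over all members, the chemokine gene Ccl3 was at least 6.43-fold lower, Alox5ap, which serves leukotriene synthesis, at least 4.71-fold, Acvr2a at least 4.56-fold and S100a4 at least 4.11-fold. S100a4 had 0 UMIs only after doublet removal, and with those barcodes kept its log2 value was 1.09.

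Slpi was also uneven between clones. From the highest down it made up 491 UMIs per 10000 in anti-CTLA-4 clone 2, 404 in isotype clone 8, 273 in isotype clone 3, 264 in isotype clone 2, 222 in isotype clone 10, 136 in anti-CTLA-4 clone 5, 110 in isotype clone 9, 99.7 in anti-CTLA-4 clone 3 and 93.4 in isotype clone 1. Saline control clone 1, in which 2 of 6 barcodes were plasma cell-like, had 0.728. The clones differ in their number of plasma cell-like barcodes, and these values have no test.

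Few genes passed within the remaining classes. With the germinal centre B-like and the plasma cell-like clusters left out, 52 genes passed in place of 2760, and no germinal centre, cell cycle or follicular gene was among them. This also took out the deepest members, 61 and 40 barcodes with medians of 15846 and 31884 UMIs, against 1932 in follicular B-like members. How many changes could be recovered at the depth left was not simulated for this setting. Of list genes, 6 T cell, 2 memory and innate-like and 1 secretion gene were higher, and 1 activation gene was lower. Members outside the B lineage clusters stayed in this comparison. Within follicular B-like barcodes 0 of 10412 genes passed (0%), with 318 at an unadjusted p under 0.05 and 0 by DESeq2. The fit used 1 trend of spread for all genes in this class. Without the anti-CTLA-4 library 4 passed. In simulated data of that size 25% of 4-fold and 2% of 2-fold changes were recovered, so most changes of these sizes were not detectable at this depth.

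T cell genes were higher in members in 6 of 7 cases, but in 0 with doublets kept and in 0 with 1 barcode per clone. Cd3e was at 62.9, 47.8 and 24.4 CPM against 6.65, 11.3 and 8.14 (log2 2.22, adjusted p = 9.21e-06). With doublets kept its log2 value was -0.09 (adjusted p = 0.869). T cell markers summed to 1.274, 1.093 and 0.751 UMIs per 10000 in members and 0.2645, 0.3658 and 0.2913 in the others, and none of the 5 markers was at 0. The 7 members outside the B lineage held 5 to 36 such UMIs each. Barcodes holding a UMI of Cd3d, Cd3e or Cd3g were then left out. By that choice these genes had 0 UMIs on both sides, so that no T cell gene was higher is no test. The counts for the germinal centre (11 of 14), secretion (19 of 20) and MHC class II lists (10 of 10) were the same numbers as before. Of the 6 myeloid markers 3 were at 0 in members of each library, but their sums were near those of the others. They came to 3.074, 2.808 and 2.092 UMIs per 10000 in members and 2.807, 3.044 and 2.494 in the others.

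The next comparisons, within single classes, were added after the data were seen. Among germinal centre B-like barcodes 135 of 6825 genes passed (1.98%), 20 higher (0.293%) and 115 lower (1.68%) in members. Plac8 was at 0, 0 and 1.37 CPM in members against 335, 212 and 148 (log2 -7.27, adjusted p = 2.55e-41). Fcrl5 had 0 UMIs in members and was at least 10.7-fold lower, and S100a10 (log2 -4.86), Ccr6 (log2 -3.5) and Ccr7 (log2 -2.89) were lower too. Higher genes were weaker, led by Echdc1 (log2 1.61), Lmo7 (log2 1.49) and Rgcc (log2 1.26). Lmo7 did not pass without the isotype library (adjusted p = 0.19), and Rgcc did not without the saline control (0.32) or the anti-CTLA-4 library (0.144). Of 14 germinal centre programme genes 1 was higher and 1 lower (0 and 0 with DESeq2, with 1 barcode per clone or without the isotype library), and S1pr2 (log2 0.67, adjusted p = 0.0725) did not pass, nor did the cell cycle gene Mki67 (log2 -0.01, adjusted p = 0.997). The fit used 1 trend of spread for all genes, so these p-values rest on spread pooled over genes. DESeq2 called 19, 1 barcode per clone left 5, and 44 passed without the isotype library. Among plasma cell-like barcodes 3 of 2921 genes passed (0.103%), and the named ones were Ly6d (591, 325 and 182 CPM against 1360, 1390 and 1020, log2 -1.98, adjusted p = 0.0433) and Dusp1 (log2 -2.12, adjusted p = 0.0433). Leaving out the saline control library gave 99 calls and leaving out either of the others gave 0.

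Members whose light chain was matched exactly by another member of their clone (62, 63 and 45 barcodes) were compared with members whose light chain was not (6, 4 and 19). Only the light contig with the most UMIs of each barcode was used. The 6 unmatched saline control barcodes were 3 pairs, and all 3 shared a second light contig, so they did not lack a common light chain. Of 5370 genes, 141 passed (2.63%), 133 higher (2.48%) and 8 lower (0.149%) with a match. Secretion genes were higher in 14 of 18, with Jchain at 32200, 20300 and 8040 CPM against 0, 562 and 861 (log2 5.01, SE 0.319, adjusted p = 1.88e-51). Fkbp11, an isomerase of the ER, had 0 UMIs without a match and was at least 27.2-fold higher, and Ckap4 was at least 18.6-fold, Prg2 at least 15.4-fold and Sdc1 at least 9.21-fold higher. Secretion genes higher numbered 5 without the isotype library and 3 with 1 barcode per clone. Germinal centre genes passed in 0 of 14 cases and cell cycle genes in 0 of 20, but when a match needed the light V gene alone, 189 of 3220 genes passed, with 4 germinal centre and 12 cell cycle genes higher. The classes moved with this result: all 40 plasma cell-like members were matched and none was unmatched, whereas 14 of the 19 unmatched anti-CTLA-4 barcodes were germinal centre B-like. Here too the fit used 1 trend of spread for all genes. Without the isotype library 17 genes passed, without the anti-CTLA-4 library 42, and with 1 barcode per clone 13.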

How the data were processed

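Values in the deposited expression files are counts of UMIs for each gene in each barcode. Cell Ranger 7.0.1 made them, per the file headers. The submitters' processing notes add bcl2fastq 2.20.0 and build mm10. Each row of the deposited receptor files is a productive contig with its counts of UMIs and reads. Annotation release and cell calling settings were not given in the sources used here. Expression libraries held 54715065, 55770528 and 63497466 UMIs (saline control, isotype, anti-CTLA-4), and 9033, 8851 and 10607 cells were kept. Barcodes needed at least 500 genes and at most 10% mitochondrial UMIs, and the highest Scrublet scores, 0.8% per 1000 barcodes, were removed. Of barcode sequences, 451 occurred in more than 1 expression library, and 2 members' barcodes occurred in another receptor library.

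Clustering used scanpy 1.11.5 with 2000 variable genes without immunoglobulin and T cell receptor segments, 30 components, 15 neighbours and Leiden resolution 1 (seed 0). Clusters in which Cd79a and Cd79b together reached 5 UMIs per 10000 were taken as B lineage. V mismatches were counted for 90 V genes with at least 5 unswitched clones. Members and others were summed per library and tested with edgeR 4.0.16 (TMM, filterByExpr, quasi-likelihood, library as block, 2 residual degrees of freedom, Benjamini-Hochberg, threshold 0.05). The library is a block because both sums come from it. DESeq2 1.42.0 was an alternative. The test was checked on simulated counts with 200 changed genes, recovering 81% of 4-fold and 36% of 2-fold changes for members against others, and 40% and 2% for the light chain comparison. Members of a list were counted by direction without a set test. Named genes were the 12 highest and 12 lowest that passed and moved the same way in all 3 libraries, without receptor, mitochondrial, ribosomal protein and unnamed genes, plus genes of the fixed lists. Clones printed were the first 2 per library by size, those with unswitched and switched members, and the largest whose light chains all differ. The members and lists were chosen with earlier results of these data known. The B cell-depleted libraries were not used here. Values of 3 list genes are not reported here, though the list counts include them.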

Additional observations from a re-analysis of the deposited data

Results flagged for a closer look

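In 4 measures the difference between members and other barcodes had opposite signs in different libraries. These contrasts between libraries were not tested, since each group had 1 library. The activated B-like share of B lineage barcodes was 0.792 percentage points higher in members of the saline control library, but members minus others came to -14.3 points in the isotype and -10.2 points in the anti-CTLA-4 library, where no member was activated B-like. The memory-like or innate-like share was 2.79 points higher in members of the saline control and 5.31 points higher in those of the isotype library, and came to -5.34 points in the anti-CTLA-4 library. Ahr, the aryl hydrocarbon receptor, had log2 ratios of members to others (with 1 CPM added) of 0.35 in the saline control, -1.47 with isotype antibody and -1.57 with anti-CTLA-4. Pdcd1lg2, a ligand of PD-1, had 0.07, -0.78 and -1.48 in that order.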

How the results depend on the processing

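Of the shares, the definition of a clone moved most. At 85% CDR3 identity members were 7.985%, 8.226% and 8.84% of barcodes (saline control, isotype, anti-CTLA-4), light chain agreement was 20.24%, 37.63% and 35.36%, and mutated anti-CTLA-4 members were 13.95%. Requiring the light chain as well left 0.9884% members in the anti-CTLA-4 library. Any light contig gave 100% agreement in the saline control, and V and J genes alone 98.17% and 98.72% in the other 2. With thresholds of 1 and 5 mismatches 63.16% and 22.37% of anti-CTLA-4 members were mutated, and with 5 mismatches 1.149% of isotype members. One barcode per clone gave 41.67% germinal centre B-like or plasma cell-like isotype members. Leaving out the largest clone, or barcode sequences seen in more than 1 receptor library, both chosen after seeing the data, left every share within its counting interval.

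Members against others gave 1826 calls with DESeq2, 1505 with 1 barcode per clone, 52 without the clusters of germinal centre B-like and of plasma cell-like barcodes, 3151 with no replicate block and 1284 to 2552 with each library left out. The follicular B-like comparison gave 3 calls with no replicate block and 0 to 4 with each library left out. The light chain comparison gave 56 with DESeq2, 42 with no replicate block, 13 with 1 barcode per clone and 17 to 136 with each library left out. Among germinal centre B-like barcodes DESeq2 gave 19, no replicate block 33, 1 barcode per clone 5 and each library left out 44 to 98. Among plasma cell-like barcodes median-ratio size factors and DESeq2 gave 1 each, no low-count filter 17, no replicate block 0 and each library left out 0 to 99. With doublets kept, S100a4 turned to log2 1.09 and Cd3e to -0.09. Without those clusters Bst2 turned to -0.39 and Cdk1 to -7.22. The causes were not tested.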
